A study of Mus musculus with 8 samples.

Results

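T cell receptor gene segments were examined in tumors of the mouse cecum. Members were the rows of the deposited gene table whose symbol names a variable (V), diversity (D) or joining (J) segment or a constant gene of the alpha, beta, gamma or delta receptor locus, with a value above 0 in at least 2 of the 8 libraries. Of 37980 rows, 221 carried such a symbol and 143 were members. Another 68 rows were at 0 in every library and 10 were above 0 in 1 library. At the edge of the rule, 14 members were above 0 in exactly 2 libraries, and their nonzero values were 0.0792 to 0.327 FPKM for V and 73.0 to 966 FPKM for J segments. The 10 rows just outside it had single values of 0.0689 to 0.217 FPKM (3 V segments) and 104 to 476 FPKM (7 J segments). FPKM is the number of fragments on a gene scaled by its length and by the size of the library, so very short rows reach high values from few fragments.

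The study sequenced RNA of whole gastrointestinal stromal tumors (GIST), sarcomas of the gut wall related to the interstitial cells of Cajal, to ask how expression differs after ablation of the transcription factor Etv1. All 8 tumors came from C57BL/6 mice with the genotype Kit V558Delta/+, Etv1 flox/flox and Rosa26 CreERT2/CreERT2: 1 activating Kit allele, loxP sites in both Etv1 alleles, and a tamoxifen-dependent Cre recombinase expressed from the ubiquitous Rosa26 locus. The vehicle group had 4 libraries and the tamoxifen group 4. Neither the dose, nor the interval after treatment, nor the ages are recorded in the labels. No group received tamoxifen without the floxed alleles, and Cre is not limited to tumor cells, so an effect of tamoxifen, of Etv1 loss in the tumor and of Etv1 loss in other cells cannot be told apart. The labels do not say whether each replicate was a different mouse, and p-values therefore reflect only the spread among these libraries. In bulk tumor RNA, fewer T cells and less receptor RNA per T cell cannot be told apart.

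Each T cell assembles its receptor genes by V(D)J recombination, which joins 1 V segment, in the beta and delta loci a D segment, and 1 J segment. The constant gene is joined to them in the RNA, by splicing. Most T cells carry an alpha-beta receptor, which recognises peptides on MHC molecules, while gamma-delta T cells are common in epithelia, the gut included. Both receptor types reach the surface only with the CD3 proteins, which pass the signal into the cell.

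Etv1 itself averaged 41.2 ± 7.03 FPKM in vehicle and 25.8 ± 8.60 in tamoxifen tumors (SD, n = 4 each; limma adjusted p = 0.139), with overlap between the groups. Absolute depth is unknown. The relative depth, estimated from the step between low values, ran from 0.825 to 1.16 of that of vehicle replicate 1, with both groups spanning most of that range. The tumor markers were present (5 of 5 GIST or interstitial cell genes tested, 0 called), as were the defining T cell markers below. The summed level of the tumor markers was 1154 to 1715 FPKM in vehicle and 920 to 1309 in tamoxifen tumors, with overlap. Their log2 fold change was negative for 4 and positive for 1. In the test across all rows at a mean of 1 FPKM or more, 717 of 15473, or 4.63%, passed an adjusted p of 0.05, with 406 (2.62%) lower and 311 (2.01%) higher after tamoxifen.

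The J segments are short, and a few are shown because the statements on single J segments below rest on them and because their length limits their values. Traj50 is the J segment that passed the test, Traj37 has one of the highest alpha J levels, Trbj1-3 and Trbj2-2 are the beta J segments seen in all 8 libraries, and Trdj1 was the delta J segment with the largest single values. Traj18 and Traj33 are the J segments of the invariant receptors of NKT and MAIT cells, and were picked for that role after their values were seen. Sequences are those of GENCODE M21 (GRCm38), matched by gene identifier and written 5′ to 3′. Capitals mark the bases that encode the conserved phenylalanine (or tryptophan)-glycine-any-glycine motif.
Traj50: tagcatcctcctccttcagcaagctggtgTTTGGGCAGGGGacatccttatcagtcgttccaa
Traj37: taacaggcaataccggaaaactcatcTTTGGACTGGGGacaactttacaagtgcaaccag
Traj18: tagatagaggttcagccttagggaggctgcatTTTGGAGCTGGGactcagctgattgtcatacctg
Traj33: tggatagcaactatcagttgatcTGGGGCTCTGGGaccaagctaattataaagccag
Trbj1-3: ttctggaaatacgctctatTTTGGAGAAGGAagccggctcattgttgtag
Trbj2-2: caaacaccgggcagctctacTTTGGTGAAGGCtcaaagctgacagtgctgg
Trdj1: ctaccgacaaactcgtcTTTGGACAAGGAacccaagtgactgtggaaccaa

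The motif was searched on both strands, in any frame, as a run of 12 bases: a phenylalanine or tryptophan codon, a glycine codon, any codon and a glycine codon. It was found in 44 of the 46 member J segments that had a matching sequence (50 J members in all). Over all 70 J segments of that annotation it was found in 57, or 81.4%, and on the reverse strand in 0. The match is a description of these letters only.

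Of the 143 members, 74 could be tested and 69 could not, because their mean was under 1 FPKM. All 64 alpha V members fell in the second class. Among the tested members, 5 were lower and 0 higher after tamoxifen, or 6.76% lower beside 2.62% of all rows. The 5 were the constant genes Trac and Trbc2, the beta V segments Trbv13-2 and Trbv14, and the alpha J segment Traj50. Every tamoxifen library was below every vehicle library for 13 of the 74, or 17.6%, beside 7.56% of all rows, and above for 0, beside 7.18% of all rows. The median log2 fold change on the log2(FPKM + 1) scale was -0.99 over the tested members and 0.01 over all tested rows. That scale understates the change of low genes but gives large changes for J rows with values at 0. The median was -2.15 over the 50 J members and -0.74 over the 21 tested V members. Of the 74, 64 had a negative log2 fold change, or 86.5%, beside 49.1% of all rows. Among them, 8 J members were at 0 in every tamoxifen library and met the filter only through the vehicle group. Their negative sign follows from those zeros, and Traj50, 1 of them, is among the 5 and the 13 above. Of the 21 tested V members, all above 0 in every library, 19 had a negative log2 fold change, or 90.5%. Over all 143 members, tested or not, the tamoxifen mean was lower for 118 and higher for 25. That sign was fixed for the 16 members seen only in vehicle and the 2 seen only in tamoxifen libraries. A share over all rows, tested or not, was not computed, so this count has no comparison. With all libraries brought to an equal FPKM total, the test left 53 rows lower against 105 higher over the whole table and 1 member called, Traj50, which met the filter only through the vehicle group, so that 0 of the other 4 calls held.

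The constant genes give the most direct measure of receptor RNA, because every productive receptor of a locus uses them whatever its V and J segments. Trac, the only alpha constant gene (chromosome 14, 54840196 to 54842772, mm9; ENSMUSG00000076928), had 97.5, 85.9, 80.5 and 94.1 FPKM in vehicle replicates 1 to 4 and 46.2, 32.3, 48.4 and 59.2 in tamoxifen replicates 1 to 4. The highest tamoxifen library lay well below the lowest vehicle library. The means were 89.5 ± 7.71 and 46.6 ± 11.1 FPKM (SD, n = 4 each), 1.92-fold lower after tamoxifen, with a log2 fold change of -0.96 (SE 0.18, limma adjusted p = 0.0269). The call was lost when libraries were scaled to an equal total (adjusted p = 0.163) and when any vehicle library or tamoxifen replicate 1 was left out (adjusted p up to 0.0807), with the same direction in each of these.

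The beta locus has a pair of constant genes, each behind its own cluster of J segments. They are near-identical copies, so fragments may have been split between them and their separate values are uncertain. Trbc2 (chromosome 6, 41496729 to 41498180, mm9; ENSMUSG00000076498) had 42.7, 36.6, 27.5 and 43.8 FPKM in vehicle and 22.9, 17.9, 21.3 and 24.8 in tamoxifen tumors, with no overlap. It fell by 0.75 on the log2 scale (SE 0.17, limma adjusted p = 0.0484), close to the threshold. The call did not survive leaving out any single library except vehicle replicate 3, with adjusted p up to 0.124, and was lost with scaling to an equal total (0.240) and with no filter on level (0.0711). Trbc1 (chromosome 6, 41488217 to 41489346) had 19.3, 17.1, 12.9 and 18.1 FPKM in vehicle and 15.4, 8.02, 9.87 and 11.6 in tamoxifen tumors. Tamoxifen replicate 1 lay inside the vehicle range, and the log2 fold change of -0.57 (SE 0.20, limma adjusted p = 0.149) did not pass. The sum of both beta constant genes was 40.4 to 62.1 FPKM in vehicle and 25.9 to 38.3 in tamoxifen tumors, without overlap.

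**Figure D1:**
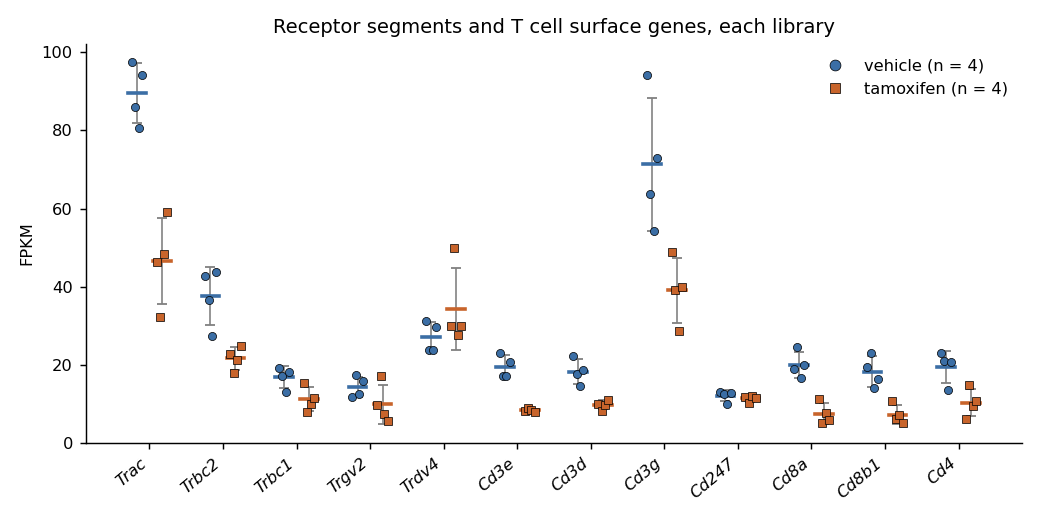
FPKM of receptor constant genes, 2 gamma and delta V segments, CD3 genes and coreceptors in each library, with the mean (coloured line) and SD (grey bar) of the 4 vehicle (circles) and 4 tamoxifen (squares) libraries. Trac, Trbc2, Cd3e, Cd3d, Cd3g, Cd8a and Cd8b1 show no overlap between groups, while Trbc1, Trgv2, Trdv4, Cd247 and Cd4 do.

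Beta V segments encode the part of the beta chain that meets peptide and MHC, and 21 of their 23 rows were members. All 21 were detected in some tumors of both groups. Each library held 19 to 21 of them, with a mean of 20 in both groups. In level, the tamoxifen mean was below the vehicle mean for 20 of 21, the exception being Trbv26 (1.16 against 1.43 FPKM). Of the 19 that could be tested, 2 were lower and 0 higher, or 10.5% lower beside 2.62% of all rows. For 9 of them every tamoxifen library was below every vehicle library, or 47.4% beside 7.56% of all rows, and their median log2 fold change was -0.75 beside 0.01 over all rows. Their summed level was 82.3 to 137 FPKM in vehicle and 45.4 to 70.1 in tamoxifen tumors.

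Trbv13-2 (chromosome 6, 41071416 to 41071831) had 12.6, 11.3, 9.39 and 14.5 FPKM in vehicle and 4.18, 4.47, 6.13 and 4.53 in tamoxifen tumors. The lowest vehicle value was well above the highest tamoxifen value. Its means were 11.9 ± 2.15 and 4.83 ± 0.88 FPKM (SD, n = 4 each), and it fell by 1.15 on the log2 scale (SE 0.16, limma adjusted p = 0.0122). Trbv14 (chromosome 6, 41085166 to 41085608) had 4.38, 6.29, 4.96 and 4.20 FPKM in vehicle and 2.14, 1.89, 1.64 and 2.05 in tamoxifen tumors. All 4 tamoxifen values were close together and below every vehicle value. It fell by 1.01 on the log2 scale (SE 0.15, limma adjusted p = 0.0129). Both calls held with any library left out, and neither held with libraries scaled to an equal total (limma adjusted p = 0.0694 and 0.114).

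Trbv16 and Trbv1 were, with Trbv13-2, the beta V segments at the highest mean level. Trbv16 had 12.9, 12.04, 7.73 and 12.4 FPKM in vehicle and 7.40, 3.18, 6.45 and 4.58 in tamoxifen tumors. The groups did not overlap, although vehicle replicate 3 came close, and the log2 fold change of -0.97 (SE 0.25, limma adjusted p = 0.0663) did not pass. Trbv1 had 7.62, 9.81, 6.31 and 9.58 FPKM in vehicle and 2.44, 3.73, 7.30 and 5.84 in tamoxifen tumors. Here tamoxifen replicate 3 exceeded vehicle replicate 3 (limma adjusted p = 0.171). Trbv2 and Trbv5, named after their values were seen, sat just outside the threshold without overlap (limma adjusted p = 0.0518 and 0.0533), and passed it under several of the alternatives. The others without overlap were Trbv4, Trbv12-1, Trbv13-3 and Trbv15.

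**Figure D2:**
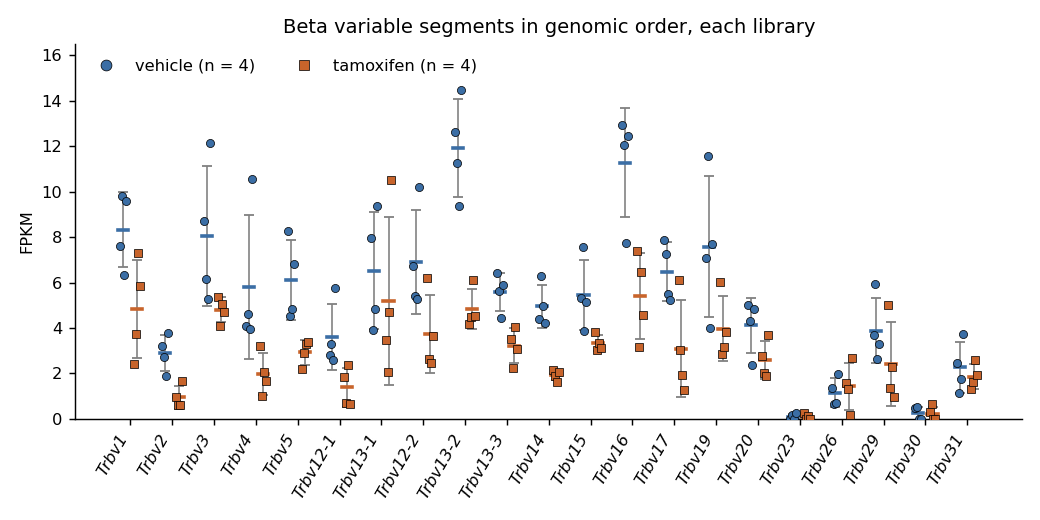
FPKM of the 21 beta V members in genomic order in each library, with group mean (line) and SD (bar) for 4 vehicle (circles) and 4 tamoxifen (squares) libraries. The mean is lower after tamoxifen for 20 of the 21, the exception being Trbv26, and Trbv13-1 shows the high value of tamoxifen replicate 4 at 10.5 FPKM.

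The relative use of beta V segments, taken as each segment's share of the summed beta V FPKM of its library, was spread over many segments. The leading segment was Trbv16 in vehicle replicates 1 and 2 and tamoxifen replicate 1, Trbv13-2 in vehicle replicates 3 and 4 and tamoxifen replicate 2, and Trbv1 in tamoxifen replicate 3. In these 7 libraries it held 9.86% to 11.9% of the sum. In tamoxifen replicate 4 the leading segment was Trbv13-1 with 16.4%, while it held 3.39% to 7.65% in the others. Trbv13-1 had 7.98, 3.89, 4.85 and 9.38 FPKM in vehicle and 3.48, 2.07, 4.71 and 10.5 in tamoxifen tumors, so the highest value of all 8 was in a tamoxifen tumor (limma adjusted p = 0.619). The 3 leading segments together held 27.1% to 33.0% of the sum in every library. The rank correlation of levels over the 21 segments, which share annotation lengths and sequence, was 0.660 to 0.898 within vehicle (6 pairs of libraries), 0.522 to 0.822 within tamoxifen (6 pairs) and 0.561 to 0.896 between groups (16 pairs). The within-group and between-group ranges thus overlapped.

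Alpha V segments encode the matching part of the alpha chain and are far more numerous. The table had 106 rows for them and 64 were members. Their mean levels over the 8 libraries ran from 0.0258 to 0.768 FPKM, so none was tested. They are therefore described by detection, meaning an FPKM above 0, and by their sum. Vehicle libraries held 52, 46, 49 and 55 alpha V members and tamoxifen libraries 36, 36, 40 and 35. The lowest vehicle count was above the highest tamoxifen count. Summed over the members, the level was 22.8, 24.2, 16.96 and 25.5 FPKM in vehicle and 11.4, 8.39, 9.53 and 12.7 in tamoxifen tumors, again without overlap, with means of 22.4 ± 3.75 and 10.5 ± 1.92 (SD, n = 4 each) and a fold of 2.13. Over all 64 alpha V members the tamoxifen mean was lower for 51, of which 8 were seen only in vehicle libraries, and higher for 13. This count too has no share over all rows beside it.

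Trav4-3 reached the highest single level, at 0.727, 2.49, 0.330 and 1.40 FPKM in vehicle and 0.268, 0.448, 0.296 and 0.181 in tamoxifen tumors. Trav16 had 0.652, 1.67, 0.748 and 1.25 FPKM in vehicle and 0.118, 0.131, 0.261 and 0.800 in tamoxifen tumors. Trav13n-4 had 1.92, 0, 2.40 and 0.232 FPKM in vehicle and 0.257, 0.283, 0.270 and 0.339 in tamoxifen tumors. These 3 had the highest mean levels of the alpha V members, and in each the groups overlapped. The alpha V members with no overlap were Trav5-4, Trav6-2 and Trav6d-4. These are 3 of 64, beside 7.56% of all tested rows, so this count says nothing particular to alpha V segments. Trav6-2 and Trav6d-4, near relatives by name, were each above 0 in all 4 vehicle libraries (0.137 to 0.469 and 0.128 to 0.452 FPKM) and listed at 0 in all 4 tamoxifen libraries. These values are near the floor, and a listed 0 does not show that a segment was absent.

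Some 8 alpha V members were seen only in vehicle libraries and 2, Trav13d-4 and Trav6-3, only in tamoxifen libraries. The share of all rows seen in only 1 group was not computed, so these counts have no comparison. The mouse alpha locus holds duplicated blocks whose copies carry d or n in their names. Of the 61 rows with such a name 23 were members and 37 were at 0 throughout, while of the other 45 rows 41 were members and 3 were at 0. Fragments that match several copies cannot be assigned with certainty, and their treatment is not stated in the labels. The copies with d or n summed to 4.87 to 6.67 FPKM in vehicle and 1.69 to 4.18 in tamoxifen tumors, and the others to 10.9 to 20.5 and 6.70 to 9.33, so neither class overlapped between groups. Trav1, the V segment of the MAIT cell receptor, had 0.131 to 0.818 FPKM in vehicle and 0.118 to 0.217 in tamoxifen tumors. Trav11 and Trav11d, the V segments of the invariant NKT receptor, were listed at 0 in all 8 libraries and are not members.

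Counted over all members, vehicle libraries held 112, 112, 108 and 121 segments and tamoxifen libraries 82, 87, 84 and 90. The means were 113.2 ± 5.5 and 85.8 ± 3.5 (SD, n = 4 each), a difference of 27.5 segments, with no overlap. Relative depth spanned 0.878 to 1.16 in vehicle and 0.825 to 1.12 in tamoxifen libraries. The deepest library, vehicle replicate 4, had the most detected segments and the shallowest vehicle library, replicate 3, the fewest of its group, while tamoxifen replicate 1, at 1.12, had the fewest of all. The part of depth in the difference was not tested. The difference was 13.75 segments among the 64 alpha V members, 10.5 among the 39 alpha J members, 2.5 among the 6 beta J members and 0 among the 21 beta V members, of which every library held at least 19. Of all members, 16 were seen only in vehicle and 2 only in tamoxifen libraries, and met the rule through that group alone. With the 7 vehicle-only alpha J rows and 1 vehicle-only beta J row left out, alpha J and beta J counts no longer separate.

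**Figure D3:**
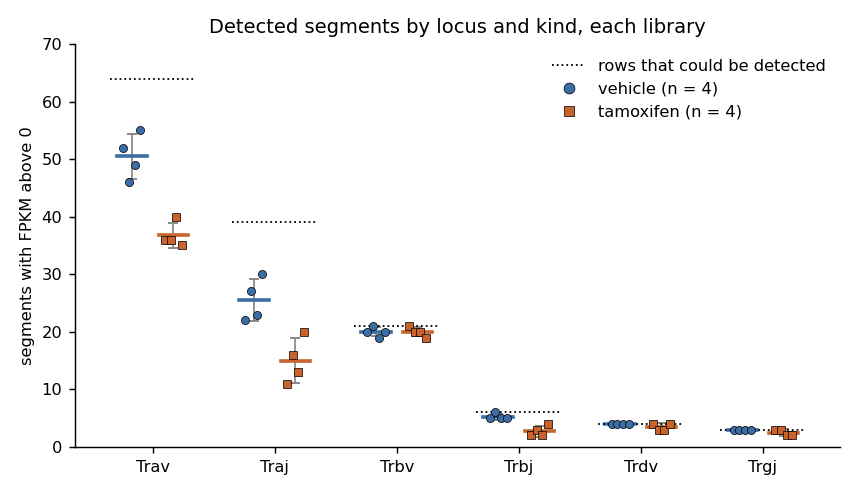
Number of segments with FPKM above 0 in each library by locus and kind, with group mean (line) and SD (bar) for 4 vehicle (circles) and 4 tamoxifen (squares) libraries and the number of members (dotted line). Vehicle and tamoxifen libraries separate for alpha V (46 to 55 against 35 to 40), alpha J (22 to 30 against 11 to 20) and beta J segments, and not for beta V segments. The separation for alpha J and beta J depends on 7 alpha J rows and 1 beta J row seen only in vehicle libraries.

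J segments encode the last bases of the variable domain, and 50 of their 79 rows were members (39 alpha, 6 beta, 2 delta, 3 gamma). None of the 16 D or J rows with a deposited span under 50 bases had a value above 0 in any library. In the beta locus all 8 J rows of 45 to 49 bases were at 0 and all 6 of 50 to 54 bases were members. The 4 D rows, of 11 to 16 bases, were at 0 throughout, so no D segment was a member. Of the 67 D or J rows of 50 bases or more, 57 were above 0 somewhere. That boundary was noticed in the values. A row at 0 there says nothing on whether the segment was used.

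Alpha J values came in steps. The relative depth used here came from rows under 2000 bases above 0 in 2 to 5 libraries, which include many of these J rows. Part of the fit to whole numbers is therefore built in. Each value was multiplied by the relative depth of its library, then divided by the lowest nonzero product of its row. In 38 of 39 alpha J rows every result was within 0.15 of a whole number. So were 120 of the 123 values above the lowest, or 97.6%. For all V members the share was 66.7%, for beta J 76.9% and for gamma and delta J together 42.3%. Some values fall within 0.15 of a whole number by chance, and that share was not computed. In 45 of the 90 V rows every value was a whole number of steps, and 52.4% of the nonzero values there were 1 step. Low V levels thus rest on a few steps as well. Of the 156 nonzero alpha J values in those rows, 98, or 62.8%, were a single step, and the highest was 6 steps. A step was worth 65.4 to 307 FPKM in alpha J rows at the depth of vehicle replicate 1. The lowest value of a row may itself stand for more than 1 fragment, so steps are a lower count. A high alpha J level thus rests on a few steps and cannot be set beside the level of a V or constant gene.

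Over these 38 alpha J rows, the steps added to 32, 46, 36 and 61 in vehicle and 23, 18, 13 and 22 in tamoxifen libraries, or 175 and 76 in all. Every tamoxifen library had fewer than every vehicle library. Divided by relative depth, the range was 32.0 to 52.6 in vehicle and 12.9 to 26.7 in tamoxifen libraries. Of the 38 rows, 7 were at 0 in every tamoxifen library and were members only through the vehicle group. In vehicle replicate 1 these held 1 step in Traj50, 3 in Traj45, 2 in Traj39 and 2 in Traj24. With those rows left out, the groups overlap after division by depth. Of all 50 J members, 1 was lower and 0 higher by the test, or 2% lower beside 2.62% of all rows. Over the same 50, the tamoxifen mean was lower for 41 and higher for 9. The 41 include the 8 named next, whose lower mean follows from their zeros. Another count found 8 seen only in vehicle libraries (Trbj2-1, Traj52, Traj50, Traj45, Traj39, Traj24, Traj9 and Traj6) and 0 only in tamoxifen libraries. The share of all rows seen in only 1 group was not computed.

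**Figure D4:**
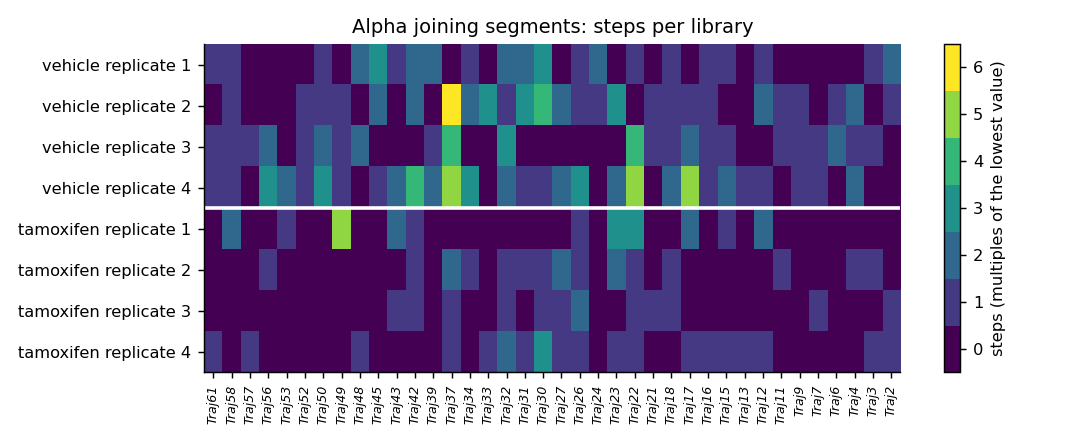
Steps (multiples of the lowest value of the row, after multiplication by relative depth) of the 38 alpha J segments with whole steps, in columns, for each library in rows, vehicle above the white line and tamoxifen below it. Most filled cells hold 1 step, and vehicle libraries hold 175 steps against 76 in tamoxifen libraries. In 7 of the segments every tamoxifen library is at 0, and these are members only through the vehicle group.

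Traj50 (chromosome 14, 54787265 to 54787327, mm9), whose sequence is given above, had 146, 158, 327 and 371 FPKM in vehicle tumors and was listed at 0 in all 4 tamoxifen tumors. These values correspond to 1, 1, 2 and 3 steps against 0. Its limma adjusted p was 5.7e-05, but it met the filter on level only through the vehicle group, its tamoxifen values have no spread, and the call rests on 7 steps in all. The p, under this or any alternative, is therefore no support, and no fold is given against a group at 0. Traj37 had 0, 1054, 746 and 708 FPKM in vehicle and 0, 328, 166 and 203 in tamoxifen tumors. Traj30 had 694, 991, 0 and 200 FPKM in vehicle and 0, 232, 233 and 851 in tamoxifen tumors. Traj22 had 189, 0, 860 and 821 FPKM in vehicle and 524, 192, 193 and 237 in tamoxifen tumors. These 3, the highest alpha J segments by mean, were each at 0 in at least 1 vehicle library, and their fold changes turned direction when single libraries were left out.

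Traj18, the J segment of the invariant NKT receptor, was seen in 4 of 4 vehicle libraries (98.8 to 170 FPKM) and 2 of 4 tamoxifen libraries (100 and 99.0 FPKM; limma adjusted p = 0.256). Traj33, that of the MAIT receptor, was seen in 1 library of each group. Trbj1-3 had 2403, 3082, 3829 and 2885 FPKM in vehicle and 882, 1442, 3355 and 2936 in tamoxifen tumors (limma adjusted p = 0.390). Trbj2-2 had 2842, 1014, 1076 and 2443 FPKM in vehicle and 1745, 954, 950 and 1164 in tamoxifen tumors (limma adjusted p = 0.493). In both the groups overlapped. Trbj1-4 had 947, 6086, 0 and 1629 FPKM in vehicle and was above 0 in 1 tamoxifen tumor, at 954.

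Among the 7 gamma and delta members that were tested 0 passed, beside 4.63% of all rows, so this count says nothing particular to these loci. Trdv4, a delta V segment known from tissue-resident gamma-delta T cells (chromosome 14, 54694679 to 54695190, mm9), had 31.3, 23.7, 23.8 and 29.6 FPKM in vehicle and 29.9, 49.95, 27.7 and 29.9 in tamoxifen tumors. It was the V segment with the highest level of all loci. The groups overlapped, with tamoxifen replicate 2 the highest, and the log2 fold change was 0.30 (SE 0.20, limma adjusted p = 0.426). The other delta V members were low: Trdv5 at 0.288 to 0.810 FPKM in vehicle and 0.276 to 1.36 in tamoxifen, and Trdv2-2 at 0.125 to 0.496 and 0 to 0.297. Trdv1 had 0.204 to 0.543 FPKM in vehicle and 0 to 0.124 in tamoxifen tumors, without overlap. Trdj1 was seen in vehicle replicate 1 (1895 FPKM) and tamoxifen replicates 2 and 4 (1907 and 2328), at 1 step each. Trdj2 ranged from 0 to 894 FPKM in vehicle and 0 to 750 in tamoxifen tumors.

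Trgv2, the only gamma V segment under this naming (chromosome 13, 19428442 to 19428895, mm9), had 11.8, 17.3, 12.6 and 15.8 FPKM in vehicle and 9.59, 17.04, 7.35 and 5.55 in tamoxifen tumors. Tamoxifen replicate 2 lay within the vehicle range and the other 3 below it (log2 fold change -0.59, SE 0.30, limma adjusted p = 0.295). The gamma J segments Trgj1 (872 to 2312 FPKM in vehicle, 576 to 3476 in tamoxifen) and Trgj2 (1568 to 2551 and 0 to 2992) overlapped too. Trgj4 (495 to 1113 and 0 to 489 FPKM) did not, but its deposited locus is the same as that of the gamma constant gene Tcrg-C, so its value is uncertain. Further gamma rows are named in another style and are not members: Tcrg-C had 8.77, 8.28, 9.49 and 8.80 FPKM in vehicle and 5.19, 7.75, 2.45 and 4.53 in tamoxifen tumors (limma adjusted p = 0.114). The gamma V rows Tcrg-V7 (means 2.01 and 0.870 FPKM), Tcrg-V4 (2.31 and 1.34) and Tcrg-V5 (2.39 and 1.60) were lower after tamoxifen. Their groups overlapped and none passed (limma adjusted p = 0.338, 0.243 and 0.531). Tcrg-V3 averaged 0.144 and 0.0744 FPKM and was not tested. Tcrg-V6, a gamma V segment known for its pairing with Trdv4, had 5.11 to 7.41 FPKM in vehicle and 7.76, 19.0, 4.24 and 4.28 in tamoxifen tumors (limma adjusted p = 0.816), again highest in tamoxifen replicate 2. Cd163l1, a scavenger receptor of gamma-delta T cells, was also highest there, at 20.2 FPKM against 5.08 to 9.08 in the other 7 libraries.

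Ratios within a library do not depend on its scaling. The 3 ratios below were chosen after the values were seen and compared by an exact 2-sided permutation test over 70 arrangements, whose smallest p is 0.0286. The test did not use the printed ratio but the difference between the log2(FPKM + 1) values of its genes. The added 1 makes that difference depend somewhat on scaling. Trdv4 over Trac was 0.321, 0.276, 0.295 and 0.314 in vehicle and 0.647, 1.55, 0.571 and 0.505 in tamoxifen tumors, higher in 4 of 4 tamoxifen tumors than in any vehicle tumor. That gave the smallest p the test allows, 0.0286 by exact permutation, or 0.0857 after Benjamini-Hochberg adjustment over the 3 ratios. With 3 ratios a single separated one cannot pass, and it was picked for its values, so these ratios are a description. Trgv2 over Trac ranged from 0.121 to 0.201 in vehicle and 0.0937 to 0.527 in tamoxifen tumors (exact permutation p = 0.571). Trac over Cd3e ranged from 4.22 to 4.99 in vehicle and 3.58 to 7.45 in tamoxifen tumors (exact permutation p = 0.514).

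**Figure D5:**
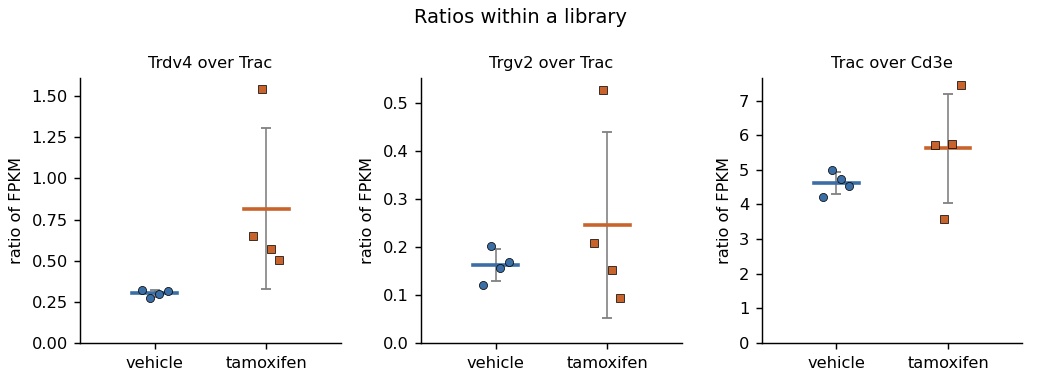
Ratios of FPKM within each library for Trdv4 over Trac, Trgv2 over Trac and Trac over Cd3e, with group mean (line) and SD (bar) for 4 vehicle (circles) and 4 tamoxifen (squares) libraries. Trdv4 over Trac is 0.276 to 0.321 in vehicle and 0.505 to 1.55 in tamoxifen tumors, and the other ratios overlap.

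The proteins that carry the receptor to the surface and relay its signal were described from gene lists. The counts for the lists below stand beside 2.62% of all rows lower and 2.01% higher. Of the 4 CD3 genes 2 were lower and 0 higher. Cd3e, a chain that every receptor complex needs, had 23.1, 17.2, 17.03 and 20.8 FPKM in vehicle and 8.10, 9.02, 8.45 and 7.95 in tamoxifen tumors and fell by 1.12 on the log2 scale (SE 0.12, limma adjusted p = 0.00759). Cd3d fell from 18.2 ± 3.18 to 9.73 ± 1.14 FPKM (SD, n = 4 each; limma adjusted p = 0.0211). Cd3g averaged 71.3 ± 17.1 and 39.1 ± 8.30 FPKM without overlap and did not pass (limma adjusted p = 0.0606). Cd247, the zeta chain, which NK cells also use, averaged 12.1 ± 1.42 and 11.4 ± 0.815 FPKM (limma adjusted p = 0.756).

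Of the 3 coreceptor genes, which bind MHC beside the receptor, 2 were lower and 0 higher: Cd8a (20.0 ± 3.38 to 7.45 ± 2.70 FPKM, limma adjusted p = 0.0192) and Cd8b1 (18.2 ± 3.95 to 7.25 ± 2.44 FPKM, limma adjusted p = 0.0251). Cd4 averaged 19.5 ± 4.15 and 10.3 ± 3.52 FPKM with overlap (limma adjusted p = 0.0883). Among the proximal signalling genes, the kinase Lck was lower (37.0 ± 5.66 to 16.2 ± 3.17 FPKM, limma adjusted p = 0.0141). The recombination and thymocyte genes Rag1, Rag2, Dntt and Ptcra, which act in developing lymphocytes, were near 0: the highest mean was 0.0409 FPKM, Rag2 was at 0 throughout, and none could be tested.

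Lists for other lymphocytes and for classes of T cells gave the following counts. Of 6 gamma-delta T cell genes tested, 0 were lower and 1 was higher, the transcription factor Sox13 (5.80 ± 1.15 to 11.999 ± 2.32 FPKM, limma adjusted p = 0.0258), which is not limited to T cells. The summed level of the 7 listed genes was 19.3 to 27.0 FPKM in vehicle and 27.8 to 54.6 in tamoxifen tumors. These sums did not overlap, but Sox13, part of the sum, was the only listed gene without overlap of its own. Sox13 had 4.38 to 7.11 FPKM in vehicle and 9.91 to 14.2 in tamoxifen tumors. Of the 6 tested, 4 had a positive log2 fold change and 2, Blk and 5830411N06Rik, a negative one. Of 6 intraepithelial lymphocyte genes 3 were lower (Il2rb, Itgae and Gzmb) and 0 higher, and their summed level was 68.5 to 111 FPKM in vehicle and 32.2 to 54.8 in tamoxifen tumors. Of 4 NK cell genes tested 2 were lower (Klre1 and Eomes) and 0 higher, with sums over the 5 listed genes of 7.93 to 10.1 and 3.77 to 4.59 FPKM. Of 5 B cell genes 0 were called, with sums of 35.8 to 119 and 35.4 to 74.7 FPKM. No gene of these 4 lists was at 0 in all libraries. With 1 library left out, the call was lost in 6 of 8 fits for Gzmb, 5 for Klre1, 4 each for Itgae, Eomes, Sox13 and Cd8b1, 3 for Cd3d, 2 for Cd8a and 0 for Il2rb, Cd3e and Lck. Itgae, Il2rb, Gzmb and Eomes are also expressed by T cells, and the part of these cell types in the segment values was not tested.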

How the data were processed

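Per the file headers, the deposited table gives gene-level FPKM computed by the authors, with a status for each value. The submitters' processing notes name STAR 2.3, Cufflinks, Cuffdiff and mm9; their roles, the read length, the strandedness and the handling of multiply mapping reads are not stated in the labels. Of all values, 178 had a failed status and were treated as missing (0 in segment rows), and 0 columns were unmapped. Rows were kept apart, with starts counted from 1. Rows with a mean of at least 1 FPKM and 2 estimates per group were compared as log2(FPKM + 1) with limma 3.58.1 in R 4.3.3 (trended eBayes, 2-sided), Benjamini-Hochberg adjusted over all rows with a threshold of 0.05. The procedure was tested on simulated data. Alternatives were the pseudocount, level filter, scaling, replicate block, identifier range, library weights, leaving out each library and, added after seeing the data, summing rows by symbol.

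The members and lists were chosen with earlier results of these data known. Named were all constant genes, the 3 highest V and J rows of each locus, members past the threshold, and the CD3 and coreceptor genes. Other genes named, the steps, the 50-base boundary and the ratios were chosen after the values were seen. Part of the signalling list is not reported here.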

Additional observations from a re-analysis of the deposited data

Results flagged for a closer look

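Of 113 groups of 4 libraries examined, 9 had a highest or lowest library whose gap to the next was above Dixon's 95% critical value as a share of the range, which chance gives in about 1 of 20 groups. Tamoxifen replicate 2 stood high in Trdv4 (49.95 FPKM) and in Trdv4 over Trac (1.55), which share a value, and in Trbj1-4 (954 FPKM, the other 3 at 0). Tamoxifen replicate 1 stood high in Traj22 (524 FPKM) and Klre1 (0.905 FPKM). Vehicle replicate 2 stood high in summed beta J FPKM (16136) and in detected beta J segments (6 of 6), vehicle replicate 1 in Trdj1 (1895 FPKM, the other 3 at 0), and vehicle replicate 3 stood low in Trbv16 (7.73 FPKM). The values of single J segments among these rest on a few steps.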

How the results depend on the processing

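The number of members called lower (5, with 0 higher in any setting) was 1 with scaling to the same total, 1 with the replicate block, 10 with libraries weighted by quality, and 3 to 7 with 1 library left out (3 without vehicle replicate 4). Over all rows it was 406, 53, 98 and 607 lower and 311, 105, 81 and 527 higher in these 4 fits (as deposited, same total, block, weights), and 127 lower and 84 higher without vehicle replicate 4, 298 and 254 with no filter. Leaving out 1 library gave log2 fold changes of -1.08 to -0.80 for Trac, -0.89 to -0.67 for Trbc2 and -0.72 to -0.43 for Trbc1. Trac did not pass with scaling to the same total (-0.90) or the replicate block (-0.96, adjusted p = 0.0647). Trbc2 did not pass with no filter (-0.75), scaling to the same total (-0.69), the replicate block (-0.75, adjusted p = 0.0732) or quality weights (-0.77). The causes were not tested. Same-numbered libraries deviated together with r of -0.14, 0.01, 0.13 and 0.08, so the numbers were not taken as pairs.

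The difference in detected segments (27.5) was 18.25 at 1 FPKM or more, 14.25 for V segments only and 18.25 for rows above 0 in 4 or more libraries, the last 2 counting fewer rows, and 24.9 to 29.2 with 1 library left out.

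Signs reversed only for uncalled genes. Traj22 (1.28, against its means, which were lower after tamoxifen, because of 1 vehicle value at 0) was -0.97 without that library, vehicle replicate 2 (range with 1 library left out -0.97 to 2.28). Traj30 (-0.39) was 1.21 with quality weights and 0.50, 0.67 and 1.73 without vehicle replicates 1 and 2 and tamoxifen replicate 1 (range -2.65 to 1.73). Traj37 (-1.41) was 0.54 without tamoxifen replicate 1 (range -3.83 to 0.54). Trdj2 (-0.18) was 1.56 with the identifier range, 0.69 with weights, and 0.83, 0.43, 0.45 and 2.02 without vehicle replicates 1, 2 and 3 and tamoxifen replicate 3 (range -2.44 to 2.02). Trgj1 (-0.20) was 0.25 with weights, 0.01 without vehicle replicate 4 and 0.20 without tamoxifen replicate 3. Tcrg-V6 (0.19) was -0.23 without tamoxifen replicate 2 (range -0.23 to 0.42). Of the CD3, coreceptor, signalling and other lymphocyte genes named as called, all but Cd3e lost the call with scaling to the same total, and all but Cd3e and Il2rb with the replicate block.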
